A study of Homo sapiens with 8 samples.

Results

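Genes for 10 surface proteins with which tumor cells restrain or address immune cells were followed at the RNA level in the ZR-75-1 breast cancer line after stable knockdown of EI24: CD274, PDCD1LG2, CD276, VTCN1, CD47, PVR, NECTIN2, LGALS9, CD70 and CD40. They were picked by symbol, with earlier results of these data known, and all 10 were measured among 18417 genes. ZR-75-1 is an established human line of luminal, estrogen receptor positive breast cancer. RNA of 4 lines was hybridised to Affymetrix arrays, 2 arrays a line and 8 in all: untransduced parental cells, cells with a short hairpin RNA against GFP (shGFP), and a pair of clones with a hairpin against EI24, here clone 1 and clone 2, together ZR-shEI24 cells. The labels give no chemical treatment for any line, and the control hairpin targets a gene that the cells do not have. Whether the 2 arrays of each line had cultures of their own is stated nowhere, and p-values then measure no more than array-to-array spread, possibly technical. The titles do not say how the knockdown lines were derived or whether they carry the same hairpin, and each is taken here as a clone. An effect of the hairpin and of the cells selected cannot be told apart within a line.

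Immune checkpoint ligands are surface proteins that bind receptors on T cells, natural killer cells or macrophages and set how strongly those cells respond. PD-L1, encoded by CD274, and PD-L2, encoded by PDCD1LG2, bind the inhibitory T cell receptor PD-1, and interferon gamma is the classical inducer of PD-L1. CD276 (B7-H3) and VTCN1 (B7-H4) are relatives of PD-L1 without an agreed receptor. PVR (CD155) and NECTIN2 (CD112) are adhesion proteins read by the inhibitory receptor TIGIT and the activating receptor CD226. CD47 binds SIRPA on macrophages as a signal against engulfment. LGALS9 encodes galectin-9, a sugar-binding ligand of TIM-3. CD70 and CD40 belong to the TNF and TNF receptor superfamilies and stimulate lymphocytes or, in the case of CD40, receive a signal from them.

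EI24 itself had log2 intensities of 8.43 to 9.25 on the 4 ZR-shEI24 arrays and of 11.91 to 12.09 on the 4 control arrays, and it was lower in clone 1 than in clone 2 (log2 difference -0.68, adjusted p = 0.0023 from limma). All 10 luminal breast markers listed were lower in ZR-shEI24 than in shGFP cells, with a median log2 difference of -3.16, and ESR1, which encodes the estrogen receptor, lay between 5.81 and 6.11 in the clones and between 10.59 and 10.78 in the controls. All 6 mesenchymal markers listed were higher. Among 19 measured leukocyte markers 3 were higher, 1 was lower and 15 did not pass the test. The mean log2 value over the 19 was 6.61 to 6.78 on the ZR-shEI24 arrays and 6.27 to 6.43 on the control arrays. Their median log2 difference from shGFP was 0.14, against 0.08 for all genes. The marker that was lower was CD8A, at -0.27 (adjusted p = 0.024 from limma), and it did not pass against parental cells (-0.13, adjusted p = 0.24 from limma). The macrophage and lysosome gene CD68 rose by 3.95, the endotoxin co-receptor gene CD14 by 0.89 and PTPRC, which marks all leukocytes, by 0.21 (adjusted p = 0.043 from limma). PTPRC lay between 4.37 and 4.54 in the clones and between 4.20 and 4.33 in the controls, without overlap and within the dimmest 25% of genes. Its difference of 0.13 from parental cells did not pass (adjusted p = 0.19 from limma). The part of other cells in the results below was not tested, and in such bulk samples fewer cells of a type and less RNA per cell cannot be told apart.

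Against shGFP, 6 of the 10 genes were higher in ZR-shEI24 cells and 2 were lower. Across all genes tested, 26.8% were called higher and 29% lower in this comparison, at an adjusted p under 0.05 from limma. The median log2 difference of the 10 genes was 0.41, against 0.08 for all genes. The rises were uneven. CD274 rose 25.3-fold, PDCD1LG2 8.54-fold, CD40 3.29-fold and PVR 3.08-fold, while NECTIN2 rose 1.43-fold and LGALS9 1.22-fold. CD276 was 1.67-fold and CD47 1.18-fold lower, and VTCN1 and CD70 did not pass. At least 2-fold higher were 4 members, where the share among all genes was 8.69%, and no member was at least 2-fold lower, where the share was 9.08%. The 4 ZR-shEI24 arrays lay above all 4 control arrays for CD274, PDCD1LG2, PVR and CD40 and below them for CD276, and for the other 5 genes the arrays overlapped. Among all genes 23.8% lay entirely above and 26.9% entirely below.

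**Figure D1:**
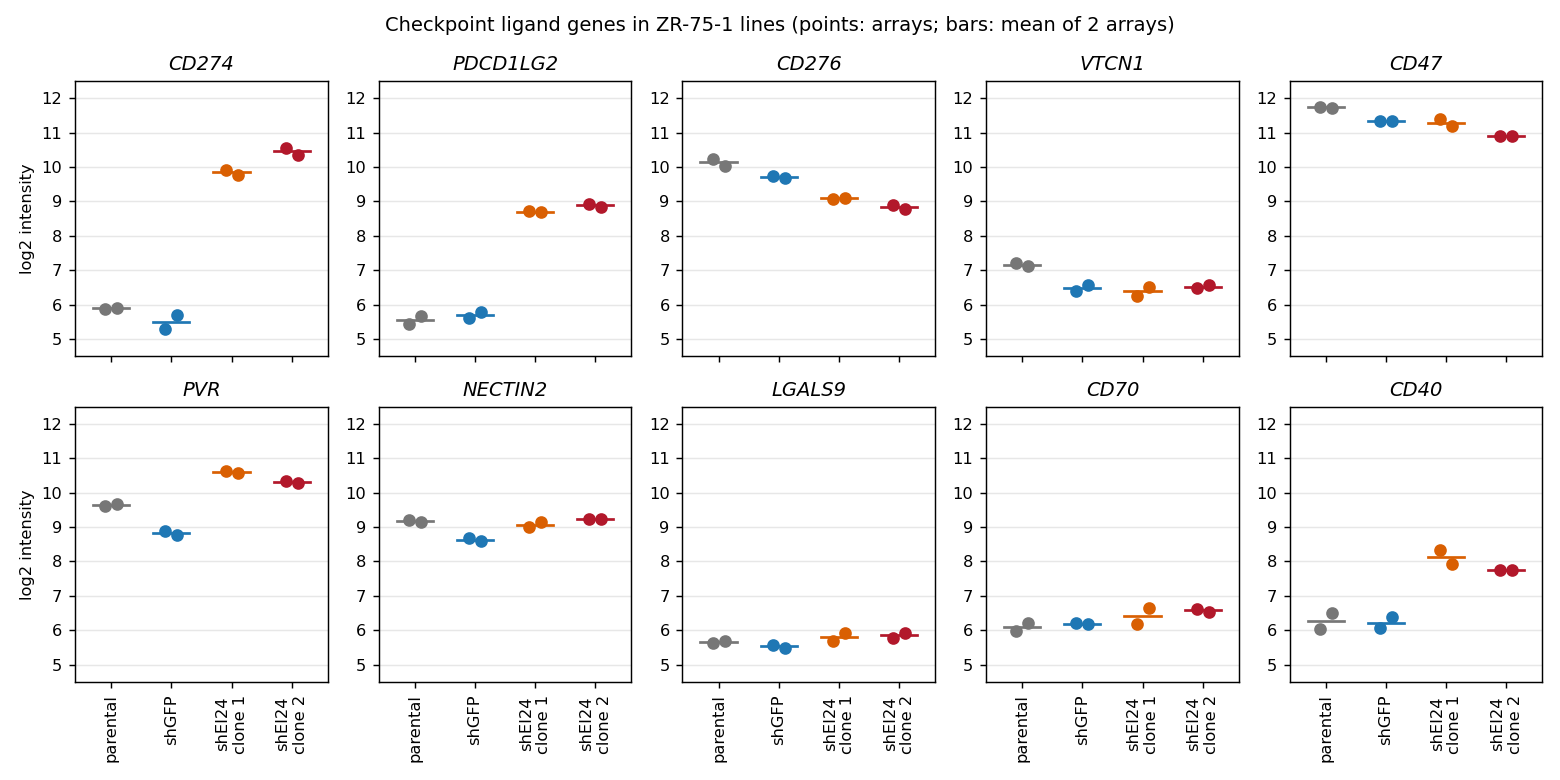
Log2 intensity (vertical axis) of each of the 10 genes on the 8 arrays; points are single arrays and short lines the mean of the 2 arrays of a line. CD274 and PDCD1LG2 sat at or below 5.91 on every control array and at or above 8.69 on every ZR-shEI24 array; heights of different genes are not comparable, since each has its own probes.

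The ligands of PD-1 showed the widest separation. CD274 was measured at log2 values of 9.91 and 9.78 in clone 1, 10.56 and 10.34 in clone 2, 5.28 and 5.70 in shGFP, and 5.89 and 5.91 in parental cells. Every ZR-shEI24 array was thus far above every control array, and both arrays of clone 2 were above both of clone 1. Against shGFP it was higher by 4.66 on the log2 scale (adjusted p = 7.0e-09 by limma, standard error 0.12), a rise that 72 of the 18417 genes, or 0.391%, equalled or passed. PDCD1LG2 was measured at 8.72 and 8.69 in clone 1, 8.93 and 8.85 in clone 2, 5.61 and 5.80 in shGFP, and 5.44 and 5.66 in parental cells. The control lines lay close together for it (shGFP minus parental 0.16, adjusted p = 0.46 from limma). Against shGFP its difference on the log2 scale came to 3.09 (adjusted p = 1.5e-08 by limma, standard error 0.09). With the parental line as the control the differences were 4.25 for CD274 and 3.25 for PDCD1LG2. In the controls both genes lay below 6.59, the level under which the dimmest 25% of genes fall. Background was not measured separately, and its part in these dim values was not tested.

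Since the sites that the interferon and NF-κB pathways use at CD274 are known to lie near its start, the 250 bases before its start are shown, as the RefSeq reference (assembly GRCh38.p14, chr9:5450292-5450541, plus strand) gives them. Capitals mark matches, on either strand, to the κB core (GGG, any 5 bases, CC), the STAT site TTCNNNGAA and the paired interferon repeats (GAAA, any 2 bases, GAAA).

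CD274: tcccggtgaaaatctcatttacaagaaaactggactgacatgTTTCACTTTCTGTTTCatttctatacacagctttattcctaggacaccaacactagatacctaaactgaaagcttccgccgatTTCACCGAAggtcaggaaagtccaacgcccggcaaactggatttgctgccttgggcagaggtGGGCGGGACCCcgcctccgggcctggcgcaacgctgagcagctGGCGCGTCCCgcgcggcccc

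The window held 1 match to the STAT site, TTCACCGAA, starting 125 bases before the start, and 2 overlapping matches to the paired repeats, TTTCACTTTC and TTTCTGTTTC read on this strand, starting 208 and 202 bases before it. Of 35116 RefSeq promoter windows of this length, 6.57% held the STAT site and 3.02% the paired repeats. It also held 3 κB core matches, 2 of them overlapping, but that loose pattern was in 54.4% of all windows. Among the 7 members with a promoter entry, only CD274 matched the STAT site or the paired repeats. PDCD1LG2, CD70 and CD40 had no entry. These are letters in the reference, and no binding was measured.

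CD274 and PDCD1LG2 are neighbours on chromosome 9, with no other measured gene between them. The rise was not shared by the genes around them. RLN2, a relaxin gene, fell by 0.46, and RLN1 and PLGRKT, a plasminogen receptor gene next to CD274, had log2 differences of -0.26 (adjusted p = 0.084 from limma) and -0.05 (adjusted p = 0.76 from limma). On the other side RIC1, a trafficking gene, had -0.29 (adjusted p = 0.057 from limma), ERMP1, a peptidase gene of the endoplasmic reticulum, fell by 2.25 and BRD10 fell by 1.12. Over the 53 measured genes that lie within 3 places of any of the 10 members, members left out, 14 were higher, 13 lower and 26 did not pass, with a median log2 difference of 0.04. Among all genes 26.8% were called higher and 29% lower, with a median of 0.08.

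**Figure D2:**
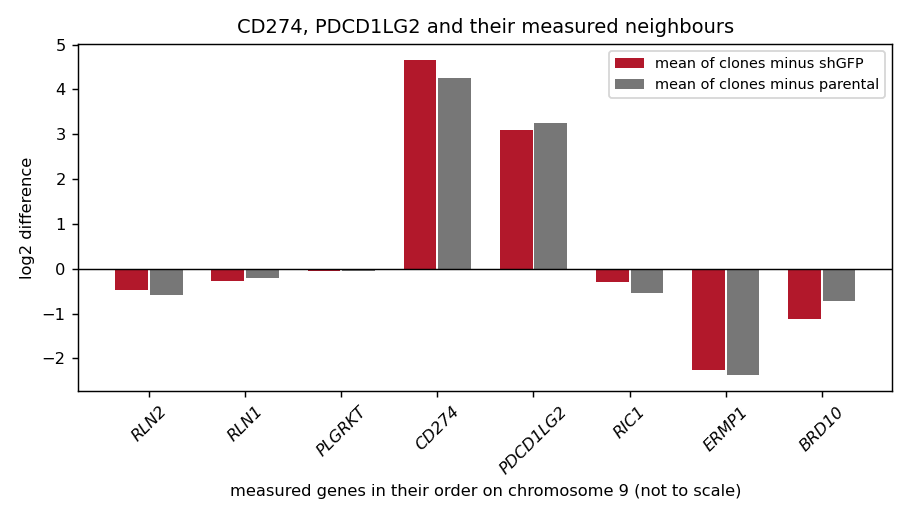
Log2 difference of the mean of the ZR-shEI24 clones from shGFP (red) and from parental cells (gray), vertical axis, for the measured genes around CD274 and PDCD1LG2 in their order on chromosome 9. Bars of CD274 and PDCD1LG2 point up to 4.66 and 3.09 against shGFP, while the bars of all 6 neighbours point below 0 against either control.

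Of 28 measured genes listed for their part in setting the level of PD-L1, 20 were higher in ZR-shEI24 than in shGFP cells, 6 were lower and 2 did not pass, and their median log2 difference was 0.81. The largest difference belonged to EGFR, the growth factor receptor, whose values were 11.64 to 11.91 in the clones, 6.72 and 6.81 in shGFP, and 7.38 and 7.06 in parental cells (log2 difference 5.02, adjusted p = 2.0e-09 from limma). ZEB1, a transcription factor of the epithelial-mesenchymal transition, rose by 4.51. Several listed genes belong to interferon and cytokine signaling. IRF1, the transcription factor through which interferon gamma reaches CD274, rose by 1.70, STAT3 by 1.63, the receptor chain genes IFNGR2 and IFNGR1 by 1.30 and 0.80, IRF9 by 1.17 and IRF2 by 1.03. JAK1 rose by 0.81 against shGFP while its difference of 0.21 from parental cells did not pass (adjusted p = 0.051 from limma). The kinase gene JAK2 fell by 1.29. JAK2 was at 7.33 to 8.14 in the clones and 8.96 to 9.31 in the controls. The proteins CMTM6 and CMTM4 keep PD-L1 on the cell surface, and their genes parted: CMTM4 fell by 1.82, to 8.04 to 8.49 from 9.98 to 10.15, and CMTM6 rose by 0.48 against shGFP but differed by only 0.16 from parental cells (adjusted p = 0.11 from limma). Of the 26 that passed, 23 kept their direction against parental cells and under the other scalings, and MYC, SPOP and B3GNT3 did not.

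**Figure D3:**
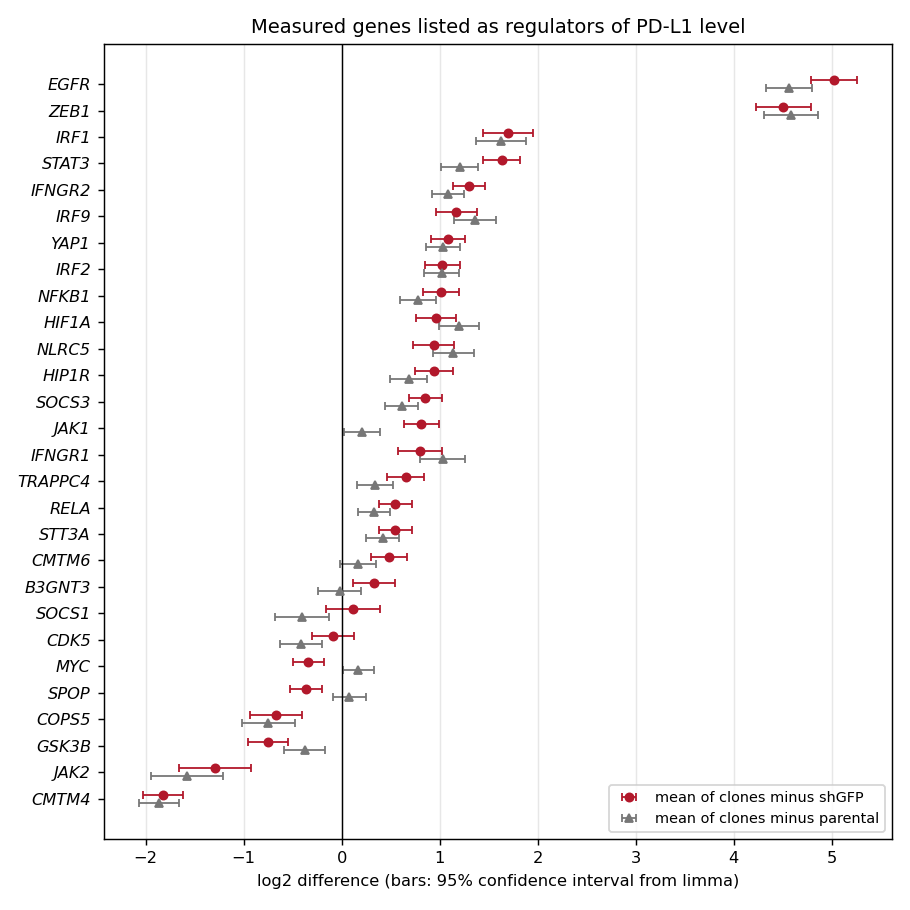
Log2 difference (horizontal axis) of the mean of the ZR-shEI24 clones from shGFP (red circles) and from parental cells (gray triangles), with 95% confidence intervals from limma, for 28 genes listed as regulators of PD-L1. EGFR and ZEB1 stand apart at 5.02 and 4.51, and JAK2 and CMTM4 lie lowest at -1.29 and -1.82.

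The TIGIT ligands rose less, and the choice of control mattered for them. PVR was measured at 10.62 and 10.58 in clone 1, 10.33 and 10.28 in clone 2, 8.88 and 8.78 in shGFP, and 9.62 and 9.68 in parental cells. The clones were above both controls, and shGFP was below parental cells. The log2 difference was 1.62 against shGFP (standard error 0.07, adjusted p = 1.8e-07 from limma) but 0.80 against parental cells (adjusted p = 1.5e-05 from limma). NECTIN2 was measured at 9.01 and 9.13 in clone 1, 9.23 and 9.22 in clone 2, 8.67 and 8.60 in shGFP, and 9.20 and 9.15 in parental cells. Its values in the clones thus overlapped those of parental cells. The rise of 0.51 against shGFP (standard error 0.08, adjusted p = 0.00032 from limma) became -0.02 against parental cells, with a 95% interval of -0.19 to 0.15.

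Other nectins and related adhesion genes did not move together. Of the 6 measured, 2 were higher, 3 lower and 1 did not pass. NECTIN3, whose product binds PVR and NECTIN2 between cells, had values of 9.12 to 9.88 in the clones and 5.30 to 5.92 in the controls, a log2 difference of 3.87 (adjusted p = 1.1e-07 from limma). NECTIN1 fell by 1.05, NECTIN4, an epithelial nectin, by 0.92, and CADM1, a ligand of the receptor CRTAM, by 1.51. CADM3 rose by 0.40 (adjusted p = 0.049 from limma) but did not pass against parental cells (adjusted p = 0.068 from limma), and CADM4 had a difference of 0.04 (adjusted p = 0.78 from limma). CADM2 is not analysed here.

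The window before PVR is shown because, among the 7 members with an entry, it alone held the E2 box CACCTG on either strand. Of all windows, 17.5% held this box. ZEB1 is known to bind E2 boxes, but no binding was measured, and a part of ZEB1 in the level of PVR was not tested. The window comes from the same RefSeq assembly (chr19:44643660-44643909, plus strand), and capitals mark CACCTG and the κB core on either strand.

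PVR: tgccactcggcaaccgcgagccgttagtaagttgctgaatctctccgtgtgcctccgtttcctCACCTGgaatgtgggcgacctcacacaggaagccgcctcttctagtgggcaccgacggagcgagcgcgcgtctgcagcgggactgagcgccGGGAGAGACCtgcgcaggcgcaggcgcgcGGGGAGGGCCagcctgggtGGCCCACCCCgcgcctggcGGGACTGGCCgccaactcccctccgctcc

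The box started 187 bases before the start of PVR, and the window held 4 matches to the κB core, a pattern found in 54.4% of all windows. Among members that were lower, the windows of CD276 held 14 and 5 such matches and that of CD47 held 2. The window of NECTIN2 held 2, that of LGALS9 held 1 and that of VTCN1 held none.

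CD40, a receptor that engages TRAF adaptors and NF-κB when its ligand binds, was measured at 8.32 and 7.93 in clone 1, 7.74 and 7.75 in clone 2, 6.06 and 6.37 in shGFP, and 6.03 and 6.50 in parental cells. Even the highest control array was more than 1 log2 unit below the lowest ZR-shEI24 array. It rose by 1.72 against shGFP (adjusted p = 1.6e-05 by limma, standard error 0.16) and by 1.67 against parental cells, from a control level in the range of the dimmest 25% of genes. Among 13 measured genes of CD40 signaling, 9 were higher, 2 lower and 2 did not pass, with a median log2 difference of 0.61. NFKB2, the subunit of the non-canonical NF-κB route, rose by 2.01, from 7.94 and 8.02 in shGFP to between 9.73 and 10.26. BIRC2, a ubiquitin ligase of that route, rose by 1.75, the adaptor gene TRAF1 by 1.56 and TRAF3, whose product restrains the route, by 1.27. REL fell by 0.70 and TRAF3IP2 by 0.45. TRAF2, BIRC3 and the ligand gene CD40LG are not analysed here.

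CD70, the ligand of CD27, was at 6.18 and 6.65 in clone 1, 6.63 and 6.53 in clone 2, 6.20 and 6.19 in shGFP, and 5.98 and 6.20 in parental cells, and its mean is among the dimmest 25% of genes. One array of clone 1 fell among the controls. The difference from shGFP was 0.30 (adjusted p = 0.078 from limma, 95% interval 0.01 to 0.60), and that from parental cells 0.40 (adjusted p = 0.027 from limma). Its neighbour on chromosome 19, TNFSF9, the ligand of the T cell receptor 4-1BB, rose by 1.62, from 7.95 and 7.87 in shGFP to between 9.37 and 9.68. Of 12 other TNF superfamily genes of co-signaling, 8 were higher, none was lower and 4 did not pass, with a median log2 difference of 0.39. TNFSF15 rose by 2.74, TNFRSF9, which encodes 4-1BB itself, by 2.68, and TNFRSF14, the partner of BTLA, by 0.77. CD27 had a difference of 0.13 (adjusted p = 0.42 from limma).

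Of the B7 relatives among the 10 genes, CD276 fell and VTCN1 did not pass against shGFP. CD276 was measured at 9.08 and 9.11 in clone 1, 8.89 and 8.78 in clone 2, 9.73 and 9.68 in shGFP, and 10.25 and 10.03 in parental cells. The clones were lowest and parental cells highest. It fell by 0.74 against shGFP (standard error 0.09, adjusted p = 7.2e-05 from limma) and by 1.17 against parental cells (adjusted p = 3.6e-06 from limma). VTCN1 was measured at 6.26 and 6.53 in clone 1, 6.48 and 6.57 in clone 2, 6.39 and 6.58 in shGFP, and 7.21 and 7.11 in parental cells. Here the parental line alone stood apart. In the clones and in shGFP the values lay below 6.59, the level under which the dimmest 25% of genes fall. The difference from shGFP was -0.03 (adjusted p = 0.83 from limma), with a 95% interval of -0.26 to 0.20, and the difference from parental cells was -0.70 (adjusted p = 0.00030 from limma).

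Of 15 other measured B7 and butyrophilin genes, 8 were higher, 1 was lower and 6 did not pass, with a median log2 difference of 0.30. Butyrophilins of the BTN3A group take part in the response of γδ T cells to phosphoantigens. BTN3A3 had values of 7.93 to 8.38 in the clones and 5.44 to 5.79 in the controls and rose by 2.56 (adjusted p = 4.6e-07 from limma). BTN3A1 rose by 2.46 and BTN3A2 by 2.36; the 3 genes are close paralogs, and sharing of signal between their probes was not tested. BTN2A2 rose by 1.31. ICOSLG, the ligand of ICOS, fell by 0.69. The classical costimulators CD80 and CD86 had differences of 0.22 (adjusted p = 0.075 from limma) and 0.10 (adjusted p = 0.30 from limma) and values at or below 5.62 on every array.

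CD47 had values of 11.38 and 11.19 in clone 1, 10.91 and 10.91 in clone 2, 11.34 and 11.33 in shGFP, and 11.76 and 11.73 in parental cells. Clone 1 overlapped shGFP, and clone 2 was below it. The mean of the clones differed from shGFP by -0.24 (adjusted p = 0.033 by limma, standard error 0.08), and this no longer passed without any one of shEI24 clone 1 array 2, either array of clone 2 or either array of shGFP (adjusted p = 0.059 to 0.16 from limma). Against parental cells CD47 fell by 0.64 (adjusted p = 0.00011 from limma). Of 9 genes for its partners, 7 were higher, none was lower and 2 did not pass. THBS1, which encodes the CD47 ligand thrombospondin-1, rose by 2.37, from 9.81 and 9.72 in shGFP to between 11.85 and 12.39, and by 1.60 against parental cells. The integrin genes ITGB3 and ITGAV rose by 1.60 and 0.63. LRP1 and CALR, receptor and signal of the opposing message that favors engulfment, rose by 1.07 and 0.57. UBQLN1 rose by 0.31 against shGFP but did not pass against parental cells (adjusted p = 0.98 from limma). QPCTL, the enzyme that finishes the SIRPA binding site of CD47, rose by 0.34 against shGFP but fell by 0.31 against parental cells (adjusted p = 0.0065 from limma). SIRPA and SIRPG had differences of -0.15 (adjusted p = 0.17 from limma) and 0.03 (adjusted p = 0.82 from limma).

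LGALS9 was also among the dimmest 25% of genes, at 5.69 and 5.92 in clone 1, 5.76 and 5.93 in clone 2, 5.58 and 5.49 in shGFP, and 5.64 and 5.70 in parental cells. The arrays of clone 1 and parental cells overlapped. It rose by 0.29 against shGFP (standard error 0.09, adjusted p = 0.026 from limma), while the difference of 0.16 from parental cells did not pass (adjusted p = 0.18 from limma), and a repeated quantile normalization brought the difference from shGFP to 0.13 (adjusted p = 0.14 from limma). It has near-identical paralogs, LGALS9B and LGALS9C, so its signal is uncertain. Of 10 other galectin genes, 5 were higher, none was lower and 5 did not pass. LGALS3 had values of 9.14 to 9.84 in the clones and 6.98 to 7.39 in the controls, a rise of 2.42 (adjusted p = 4.7e-08 from limma). LGALS8 rose by 2.03, LGALS1, whose product drives T cell death, by 1.48, and LGALSL by 0.51.

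Among 11 measured genes whose products restrain immune cells or complement by other routes, 6 were higher, 2 lower and 3 did not pass. Not all encode ligands: the higher ones include the enzyme genes IDO1, at 0.46, and TDO2, at 0.36. TDO2 did not pass against parental cells (adjusted p = 0.071 from limma). CD59, an inhibitor of the membrane attack complex, rose by 2.60, from at most 9.37 in the controls to between 11.54 and 11.90. CD24, the ligand of SIGLEC10 on macrophages, fell by 1.65. CLEC2D fell by 0.34 against shGFP but had a difference of 0.13 from parental cells (adjusted p = 0.29 from limma). SIGLEC15 rose by 1.05, and the clones were unlike for it: clone 1 had 9.59 and 9.36, and clone 2 had 7.63 and 7.94, next to 7.44 to 7.71 in the controls (clone 1 minus clone 2 1.69, adjusted p = 0.00019 from limma). CEACAM1 rose by 0.59. HLA-E and HLA-G are not analysed here.

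Receptors for these ligands on immune cells differed little. Of 17 measured, 3 were higher, none was lower and 14 did not pass, and no difference exceeded 0.36. Those that passed were TMIGD2 at 0.35, TIGIT at 0.24 and CD160 at 0.22, and of these only TIGIT passed against parental cells (adjusted p = 0.0064 from limma). TIGIT had values of 5.87 to 6.29 on all arrays, within the dimmest 25% of genes. A repeated quantile normalization brought its difference from shGFP to 0.05. CTLA4 had a difference of 0.12 (adjusted p = 0.36 from limma) and HAVCR2, which encodes TIM-3, of 0.07 (adjusted p = 0.53 from limma). PDCD1 is not analysed here.

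Taken one by one, the clones share the shGFP arrays as their control, so their values are given side by side. Of the members, 5 were higher and 1 was lower in clone 1, where 23% and 26.6% of all genes were, and 6 were higher and 2 lower in clone 2, where 25.2% and 27.8% were. PDCD1LG2 was 8.02-fold and 9.09-fold above shGFP in clone 1 and clone 2. The log2 differences from shGFP were 4.36 and 4.96 for CD274, 1.77 and 1.48 for PVR, 1.91 and 1.53 for CD40, and 0.44 and 0.59 for NECTIN2. They were -0.61 and -0.87 for CD276. CD47 was called lower in clone 2 only, at -0.42 (adjusted p = 0.0040 from limma) against -0.05 in clone 1 (adjusted p = 0.70 from limma).

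A direct test of clone 1 against clone 2 called 1 member higher and 1 lower, with 9.29% and 5.88% of all genes called. CD274 was lower in clone 1, the clone with less EI24, by a log2 difference of -0.61 (adjusted p = 0.022 from limma, 95% interval -0.93 to -0.28), and CD47 was higher there, by 0.37 (adjusted p = 0.027 from limma, interval 0.16 to 0.59). The call for CD274 was lost without either array of clone 1 or without array 1 of clone 2 (adjusted p = 0.054, 0.090 and 0.12 from limma), and that for CD47 without array 1 of clone 1 or either array of clone 2 (adjusted p = 0.097 to 0.12 from limma). PVR had a difference of 0.29 (adjusted p = 0.055 from limma, and 0.014 with trend and robust estimation or 0.033 without the dimmest 25% of genes) and CD40 of 0.38 (adjusted p = 0.23 from limma). PDCD1LG2 differed by -0.18, with an interval of -0.43 to 0.07. Of the 28 regulators of PD-L1, 8 were lower in clone 1 and 2 higher. IRF1 was lower there by -0.80 (adjusted p = 0.0044 from limma), IFNGR2 by -0.75, HIF1A by -0.64 and IRF9 by -0.58, and CMTM6 was higher by 0.33.

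The control lines themselves differed for several members. In shGFP compared with parental cells, 5 of the 10 were lower and none was higher, where 7.44% and 3.21% of all genes were called lower and higher. The median log2 difference of the members was -0.41, against -0.03 for all genes. PVR was lower in shGFP by -0.82 (adjusted p = 0.0010 from limma), VTCN1 by -0.67 (adjusted p = 0.0092), NECTIN2 by -0.54 (adjusted p = 0.0068), CD276 by -0.43 (adjusted p = 0.027) and CD47 by -0.41 (adjusted p = 0.026). Without one array of these lines at a time, 1 to 4 genes were called lower: 1 without shGFP array 1 or without parental array 1, 2 without shGFP array 2 and 4 without parental array 2. PVR was called each time. CD274 had a difference of -0.41 that did not pass (adjusted p = 0.11 from limma).

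Against parental cells in place of shGFP, 5 members were higher in ZR-shEI24 cells (CD274, PDCD1LG2, PVR, CD70 and CD40) and 3 were lower (CD276, VTCN1 and CD47), where 25.1% and 30.8% of all genes were. Called higher against each of the control lines were 4 members, CD274, PDCD1LG2, PVR and CD40, where 20.8% of all genes were, and called lower against each were CD276 and CD47, where 25.8% were. With the control lines pooled, 7 members were called higher and 3 lower, and so were 30.2% and 32% of all genes.

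**Figure D4:**
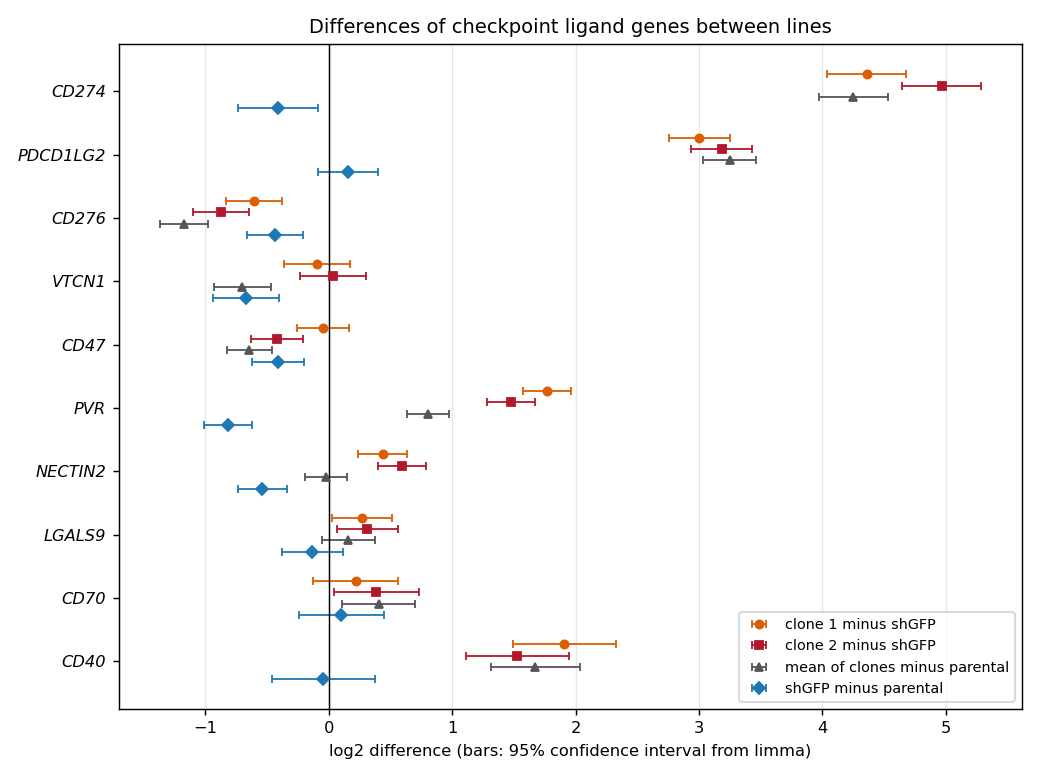
Log2 differences (horizontal axis) with 95% confidence intervals from limma for each of the 10 genes: clone 1 and clone 2 minus shGFP, the mean of the clones minus parental cells, and shGFP minus parental cells. Intervals of CD274, PDCD1LG2, PVR and CD40 lie above 0 for all 3 knockdown comparisons, and the blue points of PVR, VTCN1 and NECTIN2 lie at -0.82, -0.67 and -0.54.

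Profiles over the 8 arrays were compared after centring each gene on its own mean, with the root mean square difference in log2 units as the measure of likeness. Between members the pair LGALS9 and CD70 was closest, at 0.15, and CD274 and PDCD1LG2 differed by 0.69. Closest to CD274 among all genes were DDX60L at 0.15, PHLDA1 at 0.19 and TRIM38 at 0.19. PDCD1LG2 was most like CAPG, at 0.07, then GSTP1 and NAV2. PVR was most like BAG2, ME2 and SPART, at 0.08 to 0.10. Their means were also lower in shGFP than in parental cells, a direction that the choice by likeness brings with it. CD40 was closest to MEIS2, ZBTB18 and ILDR2, at 0.11 to 0.13. For CD276 they were RNF40, FAH and FAM89B, for CD47 CTPS1, IDE and RRP12, for NECTIN2 GNA11, ANK1 and TBC1D13, and for VTCN1 TMEM160, PAK4 and RBPMS2, all at or below 0.08. LGALS9 and CD70 vary so little that their nearest genes, ACTL9, KLK11 and FMOD, and FGF13, ALKAL1 and SCARA5, were within 0.06. The arrays share lines, so this likeness describes 4 lines and not 8 independent samples.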

How the data were processed

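RNA of 4 ZR-75-1 lines was measured on 8 Affymetrix arrays. As deposited, each transcript cluster has 1 log2 intensity per array. GCOS and RMA are the tools named in the submitters' processing notes, with no version given; RMA removes background, equalizes the distributions of the arrays and combines the probes of a cluster. Array medians were 7.28 to 7.39. The methods name an exon array, while the cluster identifiers match the annotation of a gene array, which was used for names. Of 33297 clusters 19460 carried 1 gene symbol, 1754 several and 12083 none here. The brightest cluster of each gene was kept, which set 1043 aside and left 18417 genes. Every member had 1 such cluster. LGALS9 is also named on clusters shared with its paralogs, which were left out.

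In titles with 2 numbers the clone was read from the first and the array from the second. Line means were fitted by limma 3.58.1 in R 4.3.3 (lmFit, eBayes; 4 residual degrees of freedom), with Benjamini-Hochberg adjustment over all genes and a threshold of 0.05. A simulation with known changes served to test the script. The members, gene lists, motifs and tests were chosen with earlier results of these data known. Named are all members, up to 4 called genes with the largest differences of each list, any gene of a list of 10 or fewer, the neighbours of CD274 and PDCD1LG2, the 3 most similar profiles of each member, and EI24; other list genes were named after their values were seen. Promoters came from RefSeq tables of assembly GRCh38.p14, in which 7 members had 8 windows, read over 250 bases before the start. A comparison of protein sequences was planned and not run here. The number of arrays limits the precision. Alternatives covered the control, the arrays fitted, lines as replicates, a replicate block, the variance model, scaling, dim genes, clusters, a 1.5-fold test, the methods' unpaired t-test and leaving out each array.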

Additional observations from a re-analysis of the deposited data

Results flagged for a closer look

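A direct test between the clones passed for CD274 and CD47. CD274 differed by -0.61 on the log2 scale (clone 1 minus clone 2, adjusted p = 0.022 from limma) and CD47 by 0.37 (adjusted p = 0.027 from limma). These were 1 member higher and 1 lower of 10, where 9.29% and 5.88% of all genes were called, a share near the background. The call for CD274 was lost without array 1 or array 2 of clone 1 or array 1 of clone 2 (-0.67, -0.54 and -0.50), and that for CD47 without array 1 of clone 1 or either array of clone 2 (0.28 to 0.38).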

How the results depend on the processing

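CD274, PDCD1LG2, PVR and CD40 kept their direction and call against shGFP under every alternative run, and CD276 did except in a test against a 1.5-fold difference (adjusted p = 0.22). The number of members called lower against shGFP, 2, became 1 with each line as 1 replicate or with the methods' t-test and 0 in the 1.5-fold test, and was 1 to 2 with single arrays left out; members called higher were 4 to 7 over all alternatives. CD47 lost its call in all 3 of those alternatives, NECTIN2 in the 1.5-fold test, with lines as replicates (adjusted p = 0.39) and against parental cells (log2 difference -0.0228), and LGALS9 in these, in the t-test (adjusted p = 0.080) and after a second quantile normalization. The call for LGALS9 was also not kept in every run with a single array left out, where its difference from shGFP was 0.23 to 0.35. LGALS9 and CD70 could not be tested without the dimmest 25% of genes. Between clones the number higher, 1, became 2 with a replicate block, with trend and robust estimation and without the dimmest 25%, by PVR joining (adjusted p = 0.024, 0.014 and 0.033), and was 0 to 1 with arrays left out, as was the number lower. Members lower in shGFP than in parental cells, 5, were 1 to 4 with arrays left out.

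With single arrays left out, signs turned, always short of the threshold, for VTCN1 against shGFP (-0.12 to 0.067), for VTCN1 (-0.27 to 0.0036), LGALS9 (-0.16 to 0.07) and CD70 (-0.40 to 0.071) between clones, and for CD70 (-0.0097 to 0.21) and CD40 (-0.28 to 0.19) between controls. The cause was not tested.

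Arrays of one number deviated together in all 6 pairs of lines (correlation of deviations over genes 0.25 to 0.59), but with only 2 numbers and no label that ties them, they were taken to share a number only. The replicate block changed no other member count.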
